A study of Mus musculus with 17 samples.

Results

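Interferon-stimulated genes are the genes that a cell switches on after interferon binds its surface receptors. The 38 examined here were chosen by name from the 28640 genes of a deposited heart RNA-seq table, and all 38 were found in it. Expression is given as FPKM, that is reads per kilobase of exon, scaled to the assigned reads of the library. A gene was tested if its mean reached 0.5 FPKM in at least 1 group, which 34 of the 38 did, among 13709 genes tested in all. Oas3, Mx1, Cxcl9 and Cxcl10 stayed under that limit.

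Hearts were profiled in 3 groups: 6 from mice that carried a transplanted CT-26 tumour and were made to swim (tumour_swim), 6 from mice with the CT-26 tumour and no swimming (tumour), and 5 from tumour-free mice (control). CT-26, a carcinoma line of the mouse colon, was grown as a graft, and the study asks whether swimming alters what a growing tumour does to the heart. No tumour-free mice swam, so an effect of swimming can be read in tumour carriers alone. The sources used here do not give strain, age, sex, any sham procedure in the control mice or the length of swimming. Nor do they state that each sample came from its own animal, so the p-values reflect how far these samples scatter, which may be technical in part.

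Type I interferons bind the receptor made of IFNAR1 and IFNAR2, and type II interferon (interferon gamma) binds IFNGR1 with IFNGR2. Type I signals pass through a complex that holds STAT2 and IRF9 to a DNA element called the interferon-stimulated response element (ISRE), whereas interferon gamma acts mainly at another element, the gamma-activated site (GAS). Cardiomyocytes, endothelium, fibroblasts and resident macrophages can all respond, and the induced proteins block viral replication, mark proteins, or attack vacuoles that hold microbes.

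The ISRE was the feature most of these genes shared in their promoters. Of 27 members with an entry in the RefSeq promoter table (GRCm38.p6), 18 (66.7%) held the word GAAANNGAAA on either strand within 250 bases upstream of the start, against 936 of 27025 genes in the table (3.46%). The GAS word TTCNNNGAA, which reads alike on both strands, was in 8 of the 27 (29.6%), against 2197 of 27025 genes (8.13%). The words may overlap one another, and a match is a description of the letters, not evidence that a factor binds there. The members had been picked as interferon targets, so the excess of ISRE words is a property of the choice. The 160 bases upstream of 6 members are shown, chosen after their letters were seen to display a run of overlapping words (Isg15 and Bst2), separate words (Ifit1 and Ifit3), a near copy of Ifit3 (Ifit3b) and a single ISRE word beside a GAS word (Igtp). Capitals mark the ISRE word, and each stretch runs 5′ to 3′ on the strand of its gene.
Isg15: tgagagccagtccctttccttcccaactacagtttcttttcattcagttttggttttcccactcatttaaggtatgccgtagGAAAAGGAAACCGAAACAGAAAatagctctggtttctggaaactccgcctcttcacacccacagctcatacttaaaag
Bst2: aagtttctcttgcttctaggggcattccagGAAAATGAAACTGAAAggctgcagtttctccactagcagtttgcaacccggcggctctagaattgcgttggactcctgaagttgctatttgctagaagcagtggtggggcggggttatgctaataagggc
Ifit1: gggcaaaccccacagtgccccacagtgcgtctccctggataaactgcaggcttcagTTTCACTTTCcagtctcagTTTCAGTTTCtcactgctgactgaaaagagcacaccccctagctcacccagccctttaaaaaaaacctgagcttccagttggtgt
Ifit3: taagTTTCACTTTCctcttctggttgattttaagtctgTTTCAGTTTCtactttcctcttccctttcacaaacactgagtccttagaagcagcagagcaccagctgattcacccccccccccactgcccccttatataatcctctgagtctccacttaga
Ifit3b: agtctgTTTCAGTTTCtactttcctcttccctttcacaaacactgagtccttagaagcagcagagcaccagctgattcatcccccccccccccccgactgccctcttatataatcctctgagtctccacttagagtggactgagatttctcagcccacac
Igtp: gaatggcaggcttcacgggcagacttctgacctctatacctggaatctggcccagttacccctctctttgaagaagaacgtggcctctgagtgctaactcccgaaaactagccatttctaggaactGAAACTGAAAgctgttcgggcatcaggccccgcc
The stretches lie at chr4:156200819-156200978 on the minus strand (Isg15), chr8:71537473-71537632 on the minus strand (Bst2), chr19:34640729-34640888 on the plus strand (Ifit1), chr19:34583369-34583528 on the plus strand (Ifit3), chr19:34607797-34607956 on the plus strand (Ifit3b) and chr11:58199396-58199555 on the plus strand (Igtp). The Isg15 stretch holds 3 ISRE words that overlap in a single run, starting 78 bases before the start of the gene. The Bst2 stretch holds 2 overlapping ISRE words and 1 GAS word. Ifit1 and Ifit3 carry 2 separate words each, in both genes on the opposite strand. Ifit3b also has 2 words within 250 bases. Its stretch shows 1 of them, since the other starts 188 bases before the start of the gene. The Ifit3 and Ifit3b promoters were identical at 188 of 218 aligned bases (86.2%), and Igtp had a single ISRE word and a GAS word. Promoters of the other 11 members were not analysed here, and those are Oas2, Mx1, Mx2, Usp18, Dhx58, Zbp1, Rtp4, Parp14, Ifi27l2a, Gbp4 and Iigp1.

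Most members were expressed at a low level in these hearts. Averaged over the 17 libraries, Ifi27l2a and Bst2 alone reached 10 FPKM, 27 members lay between 1 and 10 FPKM, and 9 lay under 1 FPKM. Ifi27l2a, which encodes a small hydrophobic protein of the ISG12 family, averaged 65.0 FPKM, and Bst2, which encodes tetherin, a membrane protein that holds budding viruses at the cell surface, averaged 17.1 FPKM. The next in order were Iigp1 (7.36 FPKM), Gbp2 (6.16), Irf1 (4.90), Isg15 (4.71), Igtp (4.62) and Ifit2 (4.43). Each step in this order from Iigp1 down to Ifit2 was smaller than the SD of either neighbour among tumour_swim hearts (1.19 to 2.69 FPKM for the 6 genes). The order was not tested and depended on the group. In tumour hearts Iigp1 was 8.14 FPKM or more and Gbp2 7.89 FPKM or less, while their control means were 4.51 and 5.71 FPKM. Depth here means the assigned reads of a library, and it was inferred from the deposited values. It was 15.3 ± 1.07 M reads in tumour_swim hearts (SD, n = 6), 17.7 ± 1.83 M in tumour hearts (n = 6) and 15.9 ± 1.06 M in control hearts (n = 5). At these depths a member near 0.5 FPKM rests on few reads, for example 10 to 90 per library for Zbp1.

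Tumour_swim 1, control 4 and control 1 stood apart from the other libraries, and calls that change without them are given beside the gene. The mitochondrial genome supplied 46.3% of the reads of tumour_swim 1, 30.8% of control 4 and 26.2% of control 1, while the median library had 22.1%. Control 1 did not stand apart by that share, since tumour 1 (29.7%) and tumour 2 (27.0%) were higher and control 3 (26.2%) was level with it. Long transcripts were under-represented in all 3, with a Spearman correlation across genes between exon length and deviation from the group of -0.57 in tumour_swim 1, -0.61 in control 4 and -0.57 in control 1. Controls 2 and 3 had the opposite trend (0.61 and 0.63). Tumour_swim 1 had the lowest value of its group for 31 of the 34 tested members, with a median deviation from its group of -0.78 on the log2(FPKM + 1) scale, against -0.67 over all tested genes. Control 4 was the lowest of its group for 23 of 34, with a median deviation of -0.43 for members and -0.29 for all genes.

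**Figure D1:**
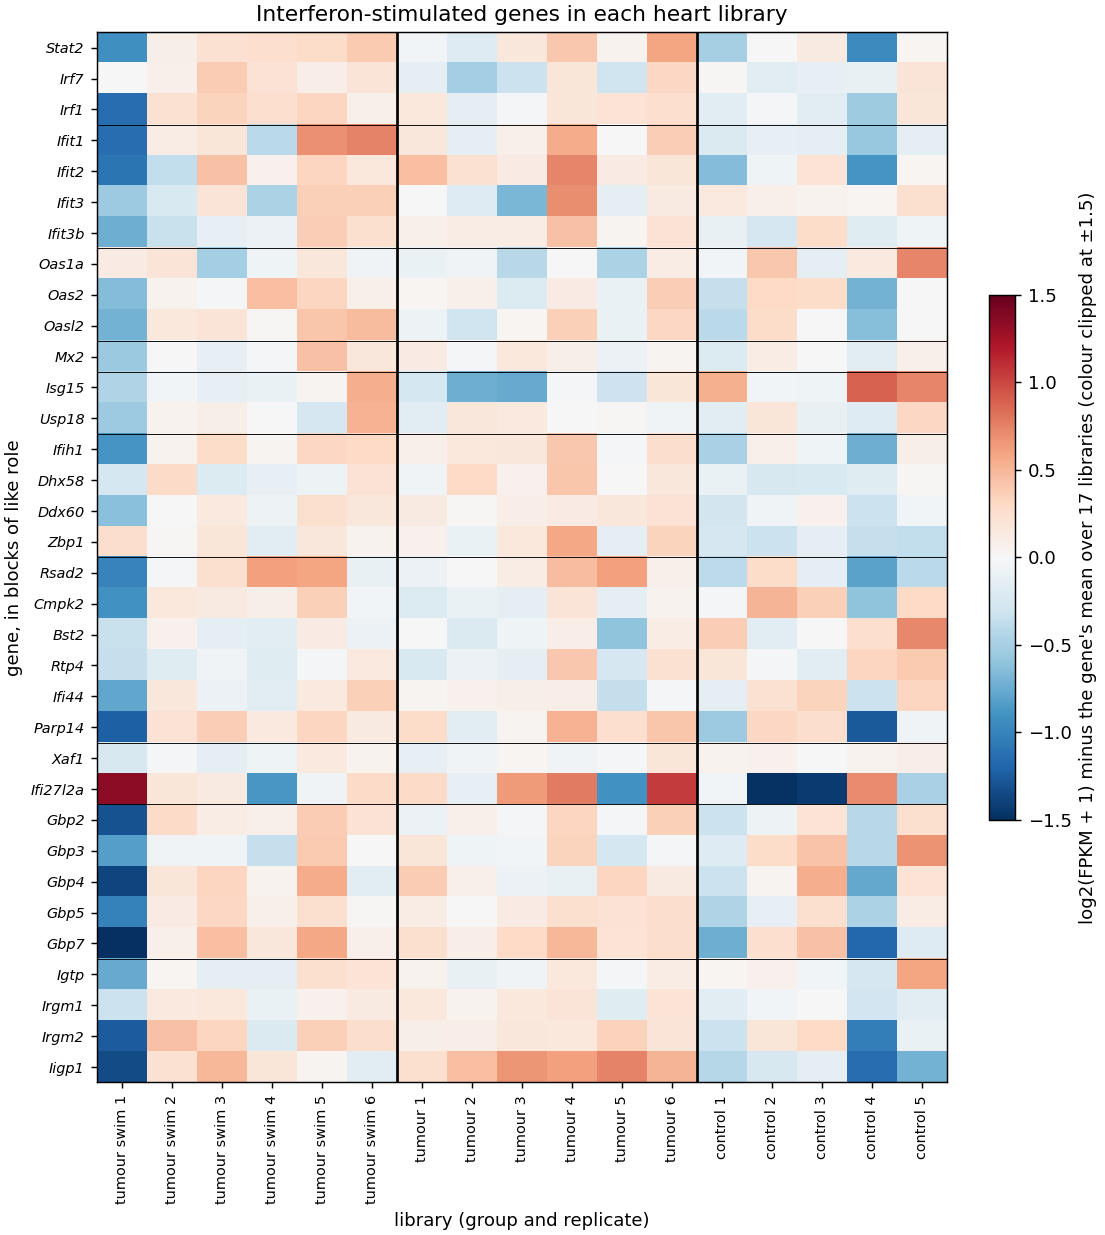
Level of the 34 tested interferon-stimulated genes (rows, in blocks of like role) in each of 17 heart libraries (columns), as log2(FPKM + 1) minus the mean of the gene over all libraries, with colour clipped at the ends of the scale. Tumour_swim 1 and control 4 are blue for most rows, Iigp1 is red in every tumour library and blue in every control, and Isg15 is red in control 1, control 4 and control 5.

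Tumour hearts were set against control hearts to ask how the heart responds to a tumour elsewhere in the body. Iigp1 and Zbp1 were higher in tumour hearts, Isg15 was lower, and the other 31 tested members did not pass. These 3 of 34 make 8.82%, and over all 13709 genes 8.47% were called (5.14% higher and 3.33% lower), so the share of members called was near the background. The test was limma's two-sided test on log2(FPKM + 1) with Benjamini-Hochberg adjustment over all genes at 0.05, and its fold changes understate the change of genes near 0. The median log2 fold change of the members was 0.21, against 0.14 over all genes, with 23 members above 0 and 11 below. Without the 3 libraries that stood apart the median was 0.02 for members and 0.03 for all genes, and without control 4 alone it was 0.12 and 0.07. At an unadjusted p under 0.05 there were 6 members of 34 (17.6%), against 27.6% of all genes.

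Iigp1 (chromosome 18, plus strand, 60376027 to 60392634 on GRCm38) encodes an immunity-related GTPase that coats the vacuoles of intracellular parasites. Its level in tumour hearts had a lowest value of 8.14, a median of 10.4 and a highest value of 11.9 FPKM, against 4.74, 5.56, 5.99, 2.51 and 3.75 FPKM in controls 1 to 5. Every tumour heart lay above every control heart. The means were 10.3 ± 1.36 FPKM in tumour (SD, n = 6) and 4.51 ± 1.41 FPKM in control (n = 5), with a log2 fold change of 1.07 ± 0.26 (SE) and a limma adjusted p of 0.0182. Iigp1 was the only tested member whose groups did not overlap (2.94% of members), against 10.4% of all genes. The call was kept in 28 of 29 alternative analyses and was lost without control 4 (log2 fold change 0.92, limma adjusted p = 0.0608). With those 3 libraries set aside it was 0.90 (limma adjusted p = 0.00197). Of its 50-base words 1.69% also occur in another gene, so few of its reads could be shared.

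Zbp1 (chromosome 2, minus strand, 173206612 to 173218923) encodes a sensor of Z-form nucleic acids that can start necroptosis, a form of cell death. Tumour hearts had a lowest value of 0.395, a median of 0.661 and a highest value of 1.29 FPKM, against 0.293, 0.227, 0.399, 0.205 and 0.188 FPKM in controls 1 to 5. The groups overlapped only in that control 3 lay just above tumour 5. The means were 0.731 ± 0.339 FPKM in tumour and 0.262 ± 0.0858 FPKM in control, which is 0.44 ± 0.12 (SE) on the log2 scale (limma adjusted p = 0.0335). The call was kept in 15 of 28 alternatives. It was lost without control 1, control 4, control 5, tumour 3, tumour 4 or tumour 6, with no expression limit, with array weights, without all 3 libraries that stood apart (0.43, limma adjusted p = 0.0633), and under both other scalings, median-of-ratios (0.37, limma adjusted p = 0.0992) and quantile (0.34, limma adjusted p = 0.177). The log2 fold change was above 0 in each of the 28, and the highest adjusted p was 0.192.

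Isg15 (chromosome 4, minus strand, 156199424 to 156200818) encodes a ubiquitin-like protein that is attached to other proteins. It had a lowest value of 2.22, a median of 3.45 and a highest value of 5.16 FPKM in tumour hearts, against 6.86, 4.28, 4.18, 9.0 and 8.04 FPKM in controls 1 to 5. The groups overlapped, since controls 2 and 3 lay within the tumour range while controls 1, 4 and 5 lay above it. The means were 3.48 ± 1.15 FPKM in tumour and 6.47 ± 2.18 FPKM in control, which is -0.73 ± 0.22 (SE) on the log2 scale (limma adjusted p = 0.0492). This call held in 10 of 29 alternatives. It was lost without the 3 libraries that stood apart (-0.53, limma adjusted p = 0.135), with the length trend removed (-0.50, limma adjusted p = 0.0808), with a pseudocount of 0.5 or 0.1, no expression limit, array weights or robust empirical Bayes, and in 12 of the fits that omit a single library. The omitted libraries were control 1, control 4, control 5, each of tumour 1 to tumour 5 and each of tumour_swim 2 to tumour_swim 5, and without control 4 the log2 fold change was -0.61 (limma adjusted p = 0.146). Isg15 has a transcript of 756 bases. Among the 3 highest controls, 1 and 4 had the trend towards short transcripts and control 5 had little trend (-0.07). Tumour_swim 1 had the same trend as controls 1 and 4 and the lowest Isg15 of its group (2.99 FPKM), but it was low for most members. Its deviation from the group on the log2(FPKM + 1) scale was -0.40 for Isg15, against a median of -0.78 over members. Beyond the fit with the trend removed, the part of length was not tested.

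**Figure D2:**
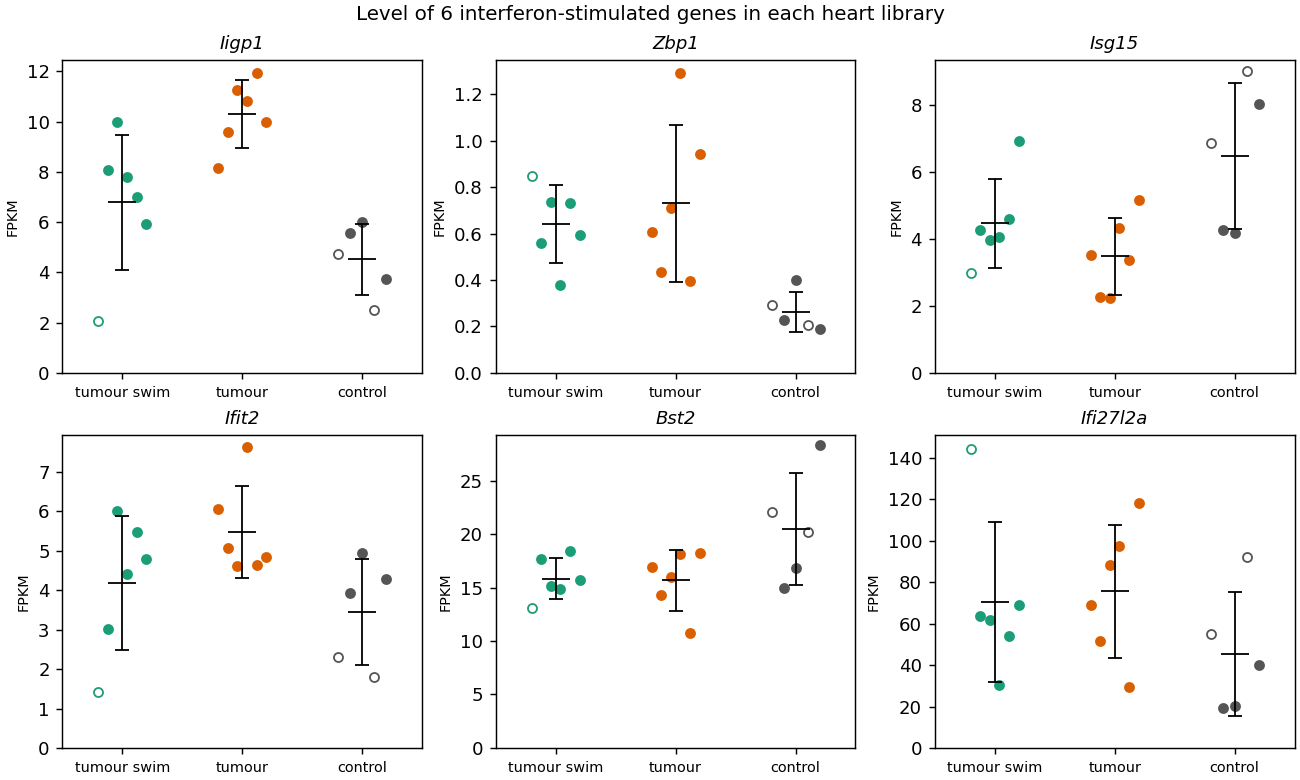
Level (FPKM) of 6 interferon-stimulated genes in each heart, with tumour_swim (n = 6), tumour (n = 6) and control (n = 5) from left to right, and bars at the mean ± SD. Open points are tumour_swim 1, control 1 and control 4. Iigp1 lies at 8.14 FPKM or more in every tumour heart and at 5.99 FPKM or less in every control, while the groups overlap for Zbp1, Isg15, Ifit2, Bst2 and Ifi27l2a.

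The other members are given by role, with all folds and p-values from the same limma test of tumour against control. Among signalling and transcription factors, none of 3 passed. Irf1, a transcription factor induced by interferon gamma, had a lowest value of 4.23, a median of 5.46 and a highest value of 5.83 FPKM in tumour hearts, against 4.10, 4.68, 4.15, 2.99 and 5.51 FPKM in controls 1 to 5. Its groups overlapped, with a log2 fold change of 0.24 (adjusted p = 0.468). Stat2, part of the complex that binds the ISRE, had 0.42 (adjusted p = 0.251), and Irf7, a factor that amplifies type I interferon production, had -0.09 (adjusted p = 0.680).

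None of 4 genes of the IFIT family, whose proteins bind foreign RNA and halt its translation, passed. Ifit2 had a lowest value of 4.62, a median of 4.96 and a highest value of 7.63 FPKM in tumour hearts, against 2.29, 3.93, 4.95, 1.81 and 4.29 FPKM in controls 1 to 5. Only control 3 lay inside the tumour range, and the log2 fold change was 0.58 ± 0.26 (SE, limma adjusted p = 0.152). Control 1 and control 4 were the lowest controls. Without tumour_swim 1 Ifit2 passed (0.58, limma adjusted p = 0.0375), and with tumour_swim 1, control 1 and control 4 all set aside it had 0.25 (limma adjusted p = 0.345). Ifit1, which recognises RNA caps without the host methyl mark, had 0.41, Ifit3b had 0.23 and Ifit3 had -0.14, with adjusted p-values between 0.296 and 0.675. Ifit3 and Ifit3b share 51.2% and 45.0% of their 50-base words, mainly with each other, so the split of reads between them is uncertain.

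Of the OAS family, whose enzymes make oligoadenylates that activate RNase L, 3 members were tested and none passed. Oasl2, an OAS-like protein, was the highest, with a lowest value of 0.936, a median of 1.35 and a highest value of 2.07 FPKM in tumour hearts, against 0.802, 1.89, 1.39, 0.529 and 1.39 FPKM in controls 1 to 5. Its groups overlapped (0.19, adjusted p = 0.541). Oas2 had 0.15 and Oas1a -0.37 (adjusted p = 0.626 and 0.164), and 57.6% of the 50-base words of Oas1a also occur in another gene, mainly Oas1g. Oas3 held between 0 and 27 reads per library. Mx2, a dynamin-like GTPase against viruses, had a lowest value of 0.415, a median of 0.573 and a highest value of 0.677 FPKM in tumour hearts, against 0.302, 0.629, 0.495, 0.333 and 0.589 FPKM in controls 1 to 5. The groups overlapped (0.09, adjusted p = 0.659). Mx1 held 4 to 21 reads in tumour hearts and 2 to 7 in control hearts.

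Usp18, which removes ISG15 from proteins and restrains the type I receptor, had a log2 fold change near 0, at 0.01 (adjusted p = 0.972). Whether Usp18 and Isg15 differ in their response was not tested. Among nucleic acid sensors other than Zbp1, Ifih1, which encodes the RNA sensor MDA5, had a lowest value of 1.33, a median of 1.67 and a highest value of 2.14 FPKM in tumour hearts, against 0.696, 1.51, 1.27, 0.435 and 1.53 FPKM in controls 1 to 5. Controls 2 and 5 lay inside the tumour range, and the log2 fold change was 0.40 (adjusted p = 0.205). Dhx58, which encodes the regulator LGP2, had 0.30 (adjusted p = 0.109) and the helicase gene Ddx60 had 0.25 (adjusted p = 0.212). Without tumour_swim 1, which alters only the pooled spread in this comparison and the genes tested, Ifih1 passed at 0.40 (limma adjusted p = 0.0446) and Ddx60 at 0.25 (limma adjusted p = 0.0431), while 26.6% of all genes were called. Without the 3 libraries that stood apart both had 0.14 (limma adjusted p = 0.411 for Ifih1 and 0.342 for Ddx60).

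Other antiviral effectors lay on both sides of 0. Bst2 had a lowest value of 10.7, a median of 16.4 and a highest value of 18.2 FPKM in tumour hearts, against 22.1, 14.95, 16.8, 20.2 and 28.4 FPKM in controls 1 to 5. The groups overlapped at controls 2 and 3, the same controls that overlapped for Isg15, and the log2 fold change was -0.35 (adjusted p = 0.184). Rsad2, which encodes viperin, a maker of a chain-terminating nucleotide, had 0.49, and Parp14, an ADP-ribosyl transferase, had 0.48 (adjusted p = 0.213 and 0.283). Cmpk2, a mitochondrial nucleotide kinase whose gene lies beside Rsad2, had -0.17, Rtp4 had -0.15 and Ifi44 -0.10, with adjusted p-values between 0.498 and 0.721. Without the 3 libraries that stood apart, Cmpk2 passed as lower in tumour hearts (-0.44, limma adjusted p = 0.0164). The controls left in that fit were controls 2, 3 and 5.

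Ifi27l2a, the most abundant member, had a lowest value of 29.5, a median of 78.7 and a highest value of 118 FPKM in tumour hearts, against 54.8, 19.5, 20.2, 92.4 and 40.1 FPKM in controls 1 to 5. The groups overlapped widely, and control 4 lay above all tumour hearts but tumour 4 and tumour 6. Its log2 fold change was 0.84 ± 0.43 (SE, limma adjusted p = 0.210). With the 3 libraries set aside it was 1.42 (limma adjusted p = 0.0212), and with the length trend removed 1.09 (limma adjusted p = 0.0338). The first of these fits kept controls 2, 3 and 5. Controls 2 and 3 had the lowest Ifi27l2a and the trend towards long transcripts. At 463 bases it was the shortest member. Xaf1, which encodes a partner of the apoptosis inhibitor XIAP, had -0.06 (adjusted p = 0.692).

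Neither the guanylate-binding proteins nor the immunity-related GTPases other than Iigp1 passed. Both families act on membranes around intracellular microbes. Gbp2 had a lowest value of 5.52, a median of 6.07 and a highest value of 7.89 FPKM in tumour hearts, against 4.54, 5.61, 6.99, 4.19 and 7.22 FPKM in controls 1 to 5, and the groups overlapped (0.18, adjusted p = 0.640). Gbp7 had 0.55, Gbp5 had 0.30, Gbp4 had 0.18 and Gbp3 had -0.13, with adjusted p-values between 0.269 and 0.691. Irgm2, Irgm1 and Igtp, the regulatory members of the GTPase family to which the effector Iigp1 belongs, had 0.37, 0.23 and -0.05 (adjusted p = 0.364, 0.229 and 0.858). The gene models of Igtp and Irgm2 overlap on chromosome 11, and the counting method is not given, so reads may be shared between them.

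Cxcl9 and Cxcl10, chemokines that draw T cells through the receptor CXCR3, were close to the limit of detection and were not tested. Cxcl9 held 0 to 15 reads per library in tumour_swim hearts, 0 to 14 in tumour hearts and 8 to 19 in control hearts. Cxcl10 held 0 to 15, 0 to 2 and 0 to 3 reads in the same groups. No direction is read from these counts.

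The sizes that the comparison allows can be read from the intervals. For 27 of the 34 tested members the 95% interval of the tumour fold change lay within a 2-fold change either way on the log2(FPKM + 1) scale. That scale shrinks the folds of low genes, so the count does not bound a ratio of FPKM: Zbp1 is among the 27, with means of 0.731 FPKM in tumour and 0.262 FPKM in control and a log2 fold change of up to 1.13 over the alternatives. The exceptions were Iigp1, Isg15, Ifit2, Rsad2, Parp14, Ifi27l2a and Gbp7. The lowest bound was -1.19 (Isg15) and the highest 1.74 (Ifi27l2a).

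**Figure D3:**
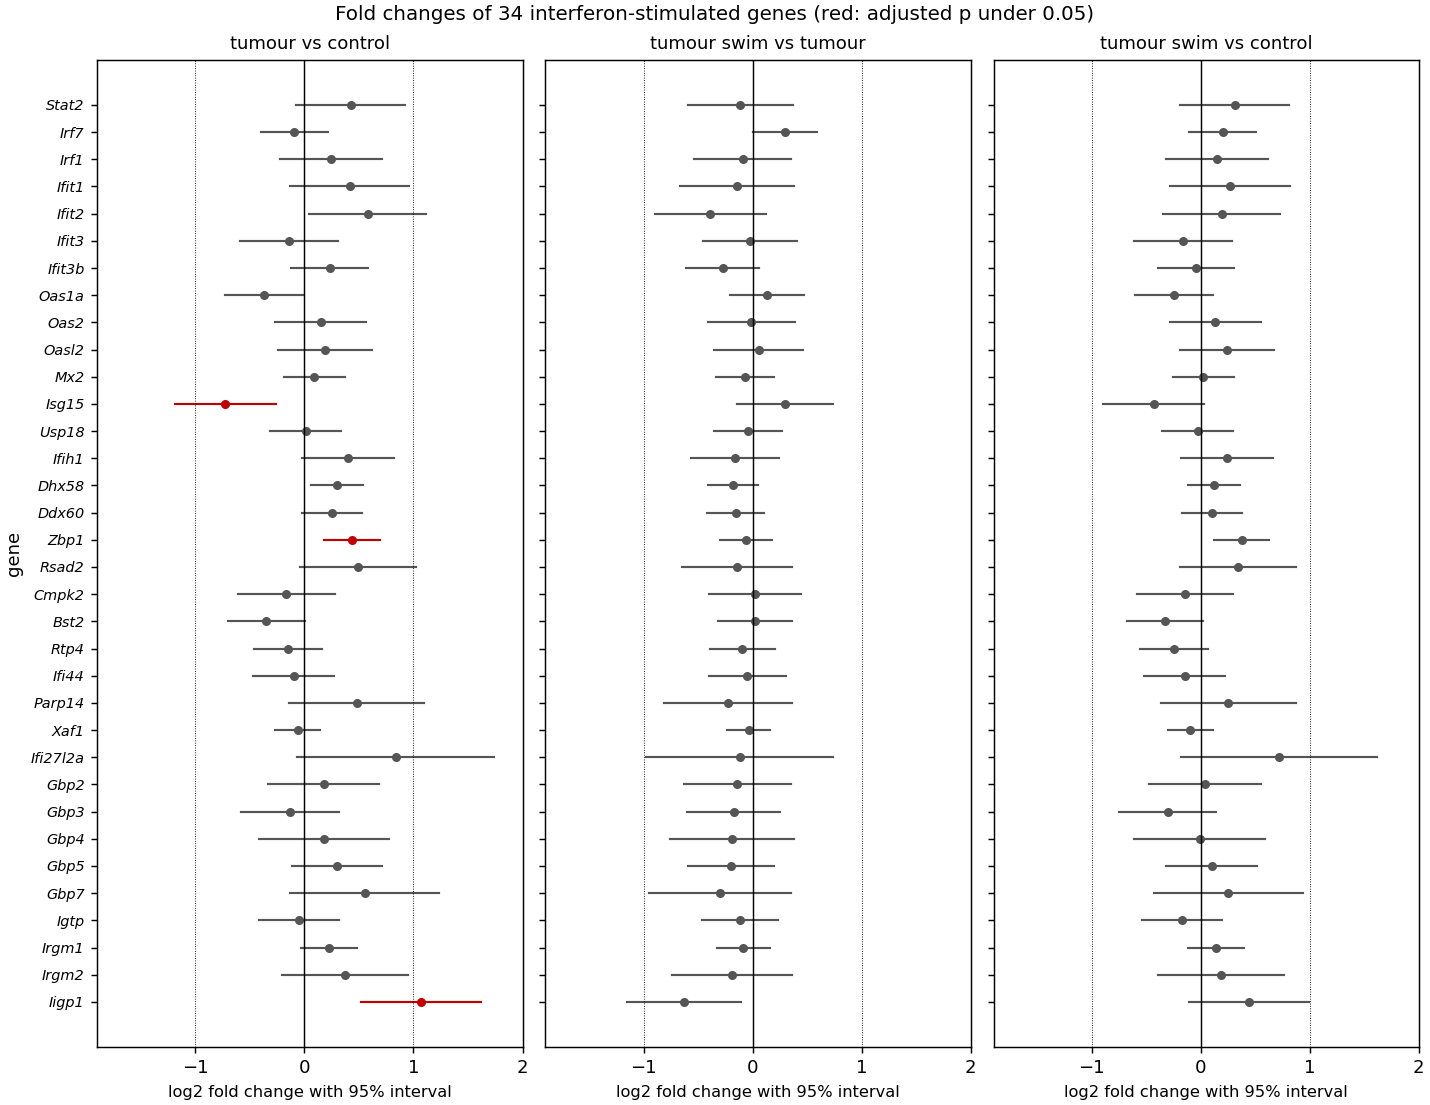
Log2 fold change (log2(FPKM + 1) scale, x axis) of the 34 tested members with its 95% interval, for tumour against control, tumour_swim against tumour and tumour_swim against control. Red marks a limma adjusted p under 0.05 (Iigp1, Zbp1 and Isg15 in tumour against control), and the dotted lines mark a 2-fold change.

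Swimming and non-swimming tumour carriers were compared to ask whether exercise altered this response. None of 34 members passed in limma's test, and over all genes 0% were called. In no member were the groups apart, against 0.372% of all genes. The smallest adjusted p of a member was 0.957. At an unadjusted p under 0.05 there were 2 of 34 (Iigp1 and Irf7, 5.88%), against 4.04% of all genes, and limma with array weights called 45 genes, none of them a member. Iigp1 had a lowest value of 2.05, a median of 7.39 and a highest value of 9.96 FPKM in tumour_swim hearts, against 8.14, 10.4 and 11.9 FPKM in tumour hearts. Tumour_swim 1 was the lowest and the groups overlapped, with means of 6.80 ± 2.69 FPKM in tumour_swim and 10.3 ± 1.36 FPKM in tumour (n = 6 each) and a log2 fold change of -0.63 ± 0.25 (SE, unadjusted p = 0.0214, limma adjusted p = 0.957). Over the alternatives this value lay between -0.74 and -0.38, and none of them called it.

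Irf7, named here after its values were seen, had a lowest value of 2.68, a median of 3.10 and a highest value of 3.82 FPKM in tumour_swim hearts, against 1.59, 2.17 and 3.59 FPKM in tumour hearts, and the groups overlapped. Its log2 fold change was 0.29 (unadjusted p = 0.0496, limma adjusted p = 0.957). Isg15 had means of 4.46 ± 1.32 FPKM in tumour_swim and 3.48 ± 1.15 FPKM in tumour (0.29, limma adjusted p = 0.957), and Zbp1 0.642 ± 0.166 and 0.731 ± 0.339 FPKM in the same groups (-0.06). The median log2 fold change of members was -0.11, against -0.08 over all genes, with 28 members below 0 and 6 above. Without tumour_swim 1 the median was 0.05 for members and 0.04 for all genes, so the sign of the median rested on that library. For 33 of 34 members the 95% interval lay within 2-fold on the log2(FPKM + 1) scale, Iigp1 being the exception with a lower bound of -1.15.

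Tumour_swim hearts were also set against control hearts. Here too none of 34 members passed in limma's test, against 0.905% of all genes (0.554% higher), and in no member were the groups apart, against 1.58% of all genes. At an unadjusted p under 0.05 there was 1 member (2.94%), against 12.4% of all genes, and array weights called no member. That member was Zbp1, with a lowest value of 0.378, a median of 0.663 and a highest value of 0.850 FPKM in tumour_swim hearts, against 0.188 to 0.399 FPKM in control hearts. Only tumour_swim 4 lay under the highest control, and the log2 fold change was 0.38 ± 0.12 (SE, unadjusted p = 0.00603, limma adjusted p = 0.177). The highest value was that of tumour_swim 1, and without that library Zbp1 had 0.34 (limma adjusted p = 0.0603). Iigp1 had 0.44 (limma adjusted p = 0.518), and without tumour_swim 1 it passed at 0.69 (limma adjusted p = 0.0189), as did Irf1 at 0.38 (limma adjusted p = 0.0455), while 16% of all genes were called. Isg15 had -0.43 (limma adjusted p = 0.448). The median of the members was 0.11, against 0.06 over all genes. Tumour hearts serve in both tumour comparisons and control hearts in both control comparisons, so the values of the 3 comparisons are not independent.

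Transcript length ran through the members' values. Across the 34 members, which share libraries and depth, the Spearman correlation of exon length with the log2 fold change was 0.40 for tumour against control, -0.33 for tumour_swim against tumour and 0.41 for tumour_swim against control. With the length trend removed from each library these were 0.01, 0.15 and 0.09, and without the 3 libraries that stood apart 0.20, -0.02 and 0.24. Within tumour_swim 1, Ifi27l2a was the highest of its group at 145 FPKM. Zbp1, with exons of 3529 bases, was also the highest of its group there, at 0.850 FPKM. The 5 guanylate-binding proteins and Parp14, with exons of 2516 to 9306 bases, had their lowest value of the group in that library. So did short members such as Isg15 (756 bases) and Bst2 (903 bases), since 31 of the 34 members were lowest in that library. With the trend removed, Iigp1 was called at 0.83 (limma adjusted p = 0.000466) and Zbp1 was not (0.34, limma adjusted p = 0.192). The median of the members was then 0.01 in tumour against control, against 0.00 over all genes.

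**Figure D4:**
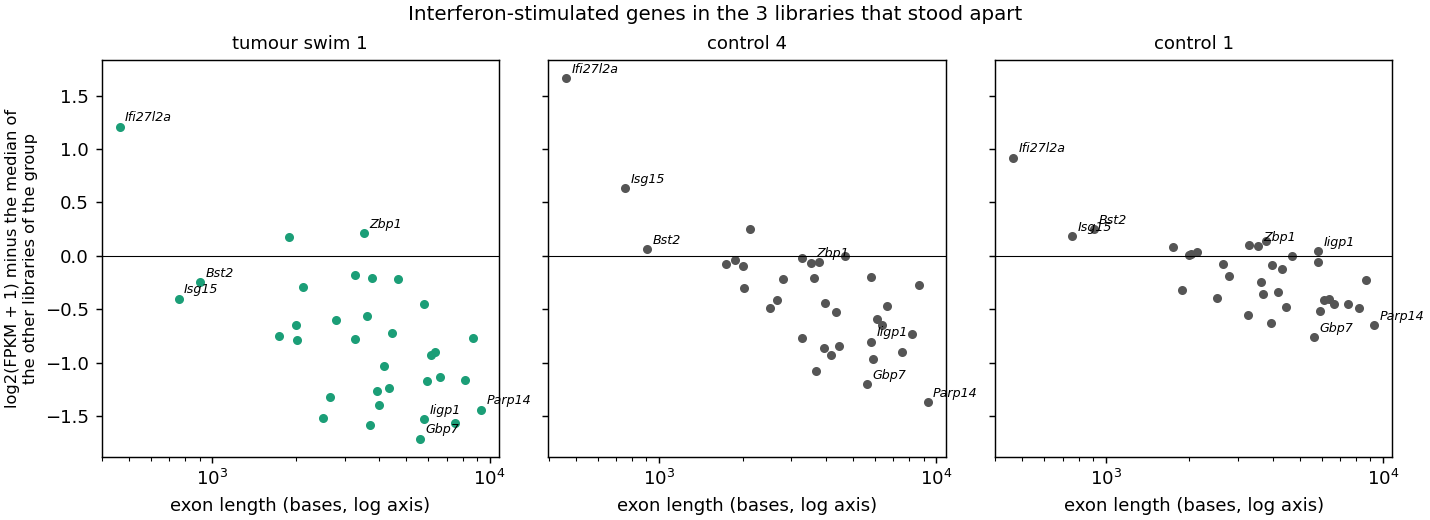
Deviation of the 34 tested members, as log2(FPKM + 1) minus the median of the other libraries of the group (y axis), against exon length in bases (x axis, log scale), in tumour_swim 1, control 4 and control 1. Each point is a gene: the short Ifi27l2a lies above 0 in all 3 libraries, and the long Parp14 and Gbp7 lie below 0.

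The interferons themselves were scarcely measured. Of 21 ligand genes listed, 4 were in the table and none reached the limit. Ifng, which encodes interferon gamma, held 0 to 1 reads per library in tumour_swim hearts, 0 to 3 in tumour hearts and 0 in every control heart. Ifna5, Ifnk and Ifnz held at most 5 reads in any library, and Ifnb1 was not among the 4. Lower levels of these transcripts were not detectable at this depth.

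The receptor subunit gene Ifngr2 was lower in tumour hearts, and it was the only called gene of 6 tested receptor genes, beside 8.47% of all genes called in either direction (3.33% lower). Ifngr2, the signalling subunit of the interferon gamma receptor, had a lowest value of 33.0, a median of 34.2 and a highest value of 35.9 FPKM in tumour_swim hearts and 30.9, 32.4 and 37.2 FPKM in tumour hearts. Controls 1 to 5 had 51.7, 43.9, 43.4, 60.9 and 43.0 FPKM, all above every heart with a tumour. Between tumour and control hearts alone, the groups did not overlap for 10.4% of all genes. The tumour log2 fold change was -0.54 ± 0.12 (SE, limma adjusted p = 0.0103), called in all 29 alternatives, and that of tumour_swim against control was -0.48 (limma adjusted p = 0.0587). Its binding partner Ifngr1 had 0.29 (adjusted p = 0.390), with means of 26.2 ± 1.97 FPKM in tumour and 21.6 ± 4.70 FPKM in control. The type I receptor genes Ifnar1 and Ifnar2 had 0.44 and 0.25 (adjusted p = 0.221 and 0.326).

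Among 12 tested JAK, STAT and IRF genes and their inhibitors 1 was called, beside 8.47% of all genes (5.14% higher and 3.33% lower). Irf8, a factor of the macrophage and dendritic cell lineages, had a lowest value of 1.59, a median of 1.75 and a highest value of 2.04 FPKM in tumour hearts, against 0.968, 1.10, 0.589, 0.624 and 1.24 FPKM in controls 1 to 5. Every tumour heart lay above every control, beside 10.4% of all genes whose groups did not overlap. Its means were 1.77 ± 0.191 FPKM in tumour and 0.905 ± 0.290 FPKM in control hearts (0.55, limma adjusted p = 0.0496), a call held in 8 of 29 alternatives. Leaving out any library but control 2, tumour_swim 1 or tumour_swim 3 ended it, as did a pseudocount of 0.5 or 0.1, a limit of 1 FPKM, no expression limit, robust empirical Bayes and the length trend removed, with adjusted p-values up to 0.160 over the alternatives. Irf9, which binds the ISRE together with STAT2, had 0.30 (adjusted p = 0.208), and Irf3, which switches on interferon genes, had 0.06 (adjusted p = 0.781). Of 11 tested nucleic acid sensing genes 1 was called, beside the same 8.47% of all genes. Sting1, the adaptor of cytosolic DNA sensing, had a lowest value of 3.26, a median of 3.82 and a highest value of 5.51 FPKM in tumour hearts, against 2.64, 1.90, 1.63, 2.02 and 2.86 FPKM in controls 1 to 5, with no overlap. It was higher in tumour hearts, at 4.08 ± 0.808 FPKM against 2.21 ± 0.518 FPKM in control (0.66, limma adjusted p = 0.0332, called in 19 of 29 alternatives). That call was lost without control 1, control 2, control 3, control 4, tumour 1, tumour 3, tumour 4 or tumour 6 and with no expression limit, with adjusted p-values up to 0.0794.

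Of 55 other tested interferon-induced genes, 6 were higher in tumour hearts and none lower. Ifi207 and Ifi204, neighbouring genes on chromosome 1 whose proteins belong to the HIN-200 family, had the largest folds of the 6. Ifi207 had a lowest value of 9.14, a median of 14.5 and a highest value of 20.5 FPKM in tumour hearts, against 2.20, 5.59, 3.83, 1.23 and 2.20 FPKM in controls 1 to 5. No tumour heart overlapped with a control (log2 fold change 2.02 ± 0.32 SE, limma adjusted p = 0.00116). It was also higher in tumour_swim hearts, with 3.22, 11.5 and 14.5 FPKM as the lowest, median and highest (1.52 against control, limma adjusted p = 0.0264), and tumour_swim 1 lay within the control range. That second call was held in 19 of 29 alternatives. It was lost without control 1, control 4, control 5 or any of tumour_swim 2 to tumour_swim 6, with the compared groups alone and with no expression limit, with log2 fold changes from 1.34 over the alternatives and adjusted p-values up to 0.126.

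Ifi204 had 5.68, 10.1 and 14.1 FPKM as the lowest, median and highest in tumour hearts, against 4.26, 3.53, 3.43, 2.34 and 5.10 FPKM in controls 1 to 5. Its groups did not overlap either (1.21, limma adjusted p = 0.00641), and both genes were called in all 29 alternatives. Ifi204 shares 20.02% of its 50-base words with other genes, mainly Ifi211, and Ifi207 shares 7.29%, so part of their reads may come from paralogues. Ly6a, which encodes the surface protein Sca-1, had 94.1, 114 and 174 FPKM as the lowest, median and highest in tumour hearts, against 78.4, 50.2, 47.9, 83.8 and 68.6 FPKM in controls 1 to 5, with no overlap (0.88, limma adjusted p = 0.0159). Median-of-ratios scaling ended this call (adjusted p = 0.151), and 19.0% of its words occur elsewhere, mainly in Ly6c1.

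Ube2l6, the enzyme that hands ISG15 to its targets, had a lowest value of 11.4, a median of 13.0 and a highest value of 25.1 FPKM in tumour hearts, against 8.34, 9.41, 6.05, 8.79 and 10.5 FPKM in controls 1 to 5. It averaged 15.5 ± 5.17 FPKM in tumour and 8.62 ± 1.66 FPKM in control hearts (0.75, limma adjusted p = 0.0217). Every tumour heart lay above every control. Its call was lost with median-of-ratios scaling and without control 1 or tumour 6. Tor3a, an interferon-induced AAA ATPase, had 6.31, 6.92 and 8.20 FPKM as the lowest, median and highest in tumour hearts, against 3.98, 5.10, 4.68, 3.41 and 4.82 FPKM in controls 1 to 5, with no overlap. Its means were 7.11 ± 0.767 FPKM in tumour and 4.40 ± 0.691 FPKM in control (0.59, limma adjusted p = 0.0372). Sp140, a chromatin reader of immune cells, had 0.621, 0.875 and 1.04 FPKM as the lowest, median and highest in tumour hearts, against 0.569, 0.341, 0.269, 0.308 and 0.540 FPKM in controls 1 to 5. Its groups did not overlap either, with means of 0.863 ± 0.167 FPKM in tumour and 0.405 ± 0.139 FPKM in control (0.41, limma adjusted p = 0.0304). The Tor3a call was lost without control 1, control 4, control 5, tumour 1, tumour 3, tumour 4 or tumour 6 and with no expression limit (adjusted p up to 0.108), and that of Sp140 without control 3, control 4, tumour 2, tumour 3 or tumour 4 and with no expression limit (adjusted p up to 0.0822). Sp140 shares 38.1% of its words with other genes. The 6 of 55 stand beside 5.14% of all genes called higher, and the list was drawn up with earlier results of these data known. Tumour and control hearts did not overlap for 10.4% of all genes. The 6 were named because they were called, so the lack of overlap adds no separate evidence.

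**Figure D5:**
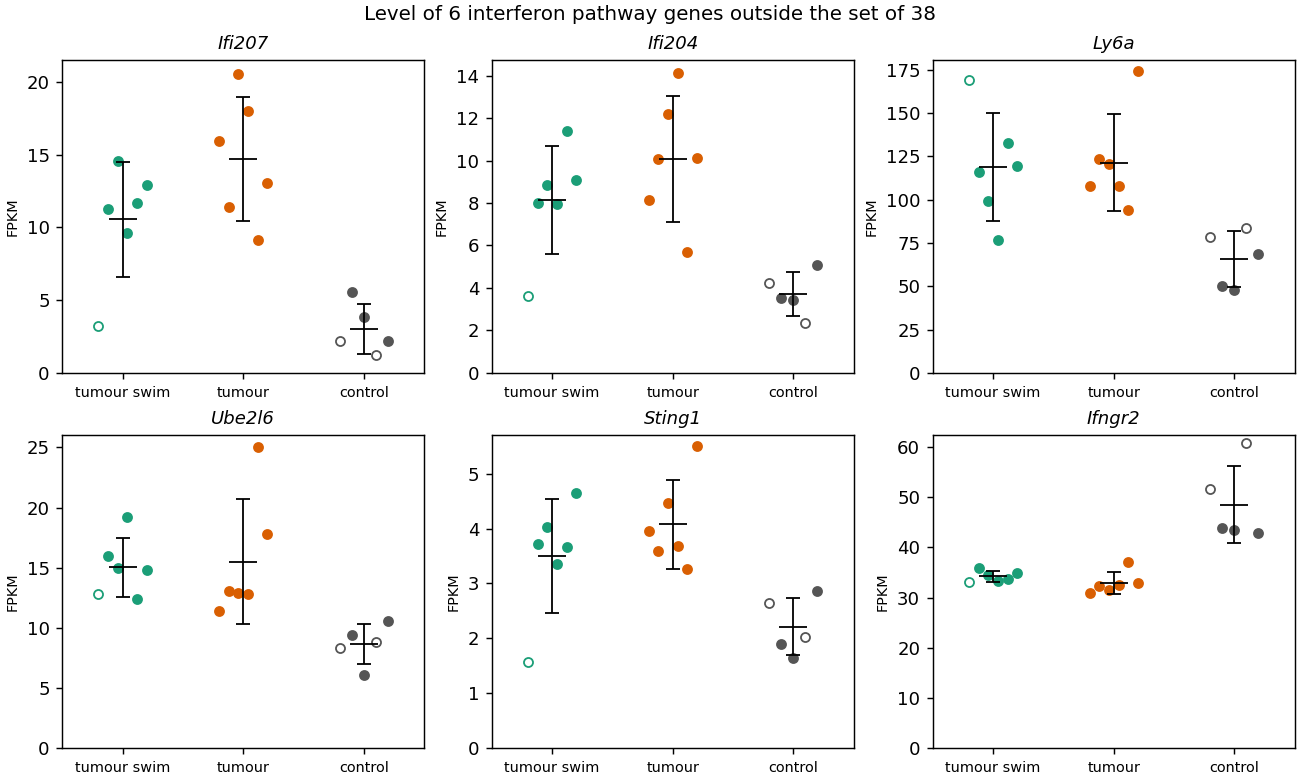
Level (FPKM) of 6 genes of the interferon pathway outside the set of 38 in each heart, with tumour_swim (n = 6), tumour (n = 6) and control (n = 5) from left to right, and bars at the mean ± SD. Open points are tumour_swim 1, control 1 and control 4. Ifi207, Ifi204, Ly6a, Ube2l6 and Sting1 lie higher in every tumour heart than in any control, and Ifngr2 lies lower. The 6 were picked from called genes, and tumour and control hearts did not overlap for 10.4% of all genes.

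Some markers of neutrophils, monocytes and macrophages were higher in tumour than in control hearts, beside 5.14% of all genes called higher and 3.33% lower. The summed level of 8 neutrophil markers was 6.39 to 17.05 FPKM in tumour_swim hearts, 14.2 to 47.8 FPKM in tumour hearts and 1.54 to 3.30 FPKM in control hearts, with 4 of 5 tested markers higher in tumour than in control hearts. Monocyte markers summed to 2.39 to 3.80 FPKM in tumour_swim, 2.58 to 5.57 FPKM in tumour and 0.586 to 1.99 FPKM in control hearts, with 2 of 4 higher. Macrophage markers summed to 148 to 241, 150 to 370 and 102 to 191 FPKM in those groups, with 2 of 10 higher. Fibroblast markers had 4 of 6 higher, endothelial markers had none called of 6, and none of 13 T and NK cell markers reached the limit. Of 5 B cell markers 1 was tested and was called lower. None of 3 tested conventional dendritic cell markers was called, and 1 of 7 cardiomyocyte markers was called lower. In tumour_swim against tumour no neutrophil, monocyte or macrophage marker was called, beside 0% of all genes. In tumour_swim against control 2 neutrophil markers and 1 monocyte marker were called higher, and no macrophage marker, beside 0.554% of all genes called higher. Siglech and Ccr9, which mark plasmacytoid dendritic cells, a main source of type I interferon, did not exceed 0.492 and 0.0472 FPKM in any library. Cox6a2, the third measured marker of that list and also a muscle gene, reached 4044 FPKM and made up nearly all of the list's sum. The hearts showed the labelled tissue, with cardiomyocyte markers summing to 8715 to 11880, 8849 to 10767 and 10015 to 14350 FPKM, and no defining marker of these lists was at 0 in every library. In bulk hearts a change in the number of cells of a type and in RNA per cell cannot be told apart, and the part of leukocytes in the values of Iigp1, Zbp1, Irf8 and the called pathway genes was not tested.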

How the data were processed

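Total RNA from mouse hearts was extracted with TRIzol and made into libraries with a NEBNext Ultra kit, per the labels' protocols. Per the submitters' processing notes, fastp, FastQC and bcl2fastq were used, with the build mm10. No source used here gives an aligner, a counting method, strandedness or batches. The deposited table holds 1 column per library and names no unit. Its values were taken as FPKM made by the authors, since with GENCODE M21 exon lengths they sum to 99.0% to 99.7% of the total that FPKM would give, and 98.6% to 99.0% of values under 20 reads lie within 0.1 of a whole read. Depth and read numbers were recovered from these steps. GENCODE M21 held 28260 of the 28640 IDs (98.7%), and positions are those of that annotation.

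Genes were tested with limma 3.58.1 (limma-trend, R 4.3.3) on log2(FPKM + 1), with 1 fit for the 17 libraries, a group term alone and 14 residual degrees of freedom. Benjamini-Hochberg adjustment ran over all 13709 genes within each of 3 comparisons. Summaries used Python 3.11.15. The fit was tested on simulated data. Intervals cover the spread between libraries, and values near 0 rest on few reads.

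The members and pathway lists were chosen with earlier results of these data known, so no list was tested. Values are printed for called members, for the member with the smallest p of each comparison and for the most abundant tested member of each role. Called pathway genes are treated alike. Hearts with a tumour are given by lowest, median and highest value, and controls by library. A gene of the fixed pathway lists is not reported here. Shared sequence was measured as the share of 50-base transcript words that occur in another gene. The alternatives covered scaling, pseudocount, expression limit, threshold, weights, a replicate block and leaving out libraries, and the removal of the length trend was added after seeing the data. Deviations of libraries with the same replicate number correlated at -0.67 to 0.68, the highest being control 1 with tumour_swim 1. Libraries with different numbers were not set beside these. Whether the numbers pair the libraries therefore cannot be told, and the main fit holds no pairing term.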

Additional observations from a re-analysis of the deposited data

Results flagged for a closer look

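In 9 of 102 sets (34 members in 3 groups, 8.82%), 1 library lay far from the rest of its group by Dixon's test, which flags about 5% of groups by chance. Members share libraries, so these flags are not independent. The library was tumour_swim 1 for 7 of the 9. It had the lowest value of its group for Stat2 (0.999 FPKM), Irf1 (1.60), Ifih1 (0.285), Parp14 (0.805), Gbp2 (1.82) and Gbp5 (0.0452), and the highest for Ifi27l2a (145 FPKM). Control 4 had the lowest value of its group for Ifit1, at 0.998 FPKM, and tumour 5 for Ifi44, at 0.439 FPKM. Tumour_swim 1 and control 4 are among the 3 libraries that stood apart, and tumour 5 is not. The cause was not tested.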

How the results depend on the processing

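No called direction turned under any of 30 alternatives. In tumour against control, 1161 genes were called. The count was 2124 with the compared groups alone, 1966 with median-of-ratios scaling, 2036 with quantile normalization, 2353 with the length trend removed, 2127 at a threshold of 0.1, and 542 to 3666 on leaving out single libraries (542 without control 1, 3666 without tumour_swim 1). Members called higher were 1 with a limit of 1 FPKM, no limit, median-of-ratios or quantile scaling, array weights or the replicate block, and 0 (without control 4) to 5 (without tumour_swim 1) on leaving out single libraries. Members called lower were 0 with a pseudocount of 0.5 or 0.1, no limit, array weights, robust empirical Bayes or the length trend removed, and 0 to 1 without single libraries. In tumour_swim against tumour, all genes called were 1 without a limit, 45 with array weights and 1 without the 3 libraries that stood apart. In tumour_swim against control, 124 genes were called. The count was 48 with the compared groups alone, 78 without a limit, 364 and 376 with median-of-ratios and quantile scaling, 515 with array weights, 352 without the 3 libraries, 505 with the length trend removed, 243 at a threshold of 0.1, and 55 to 2208 without single libraries, with 0 to 2 members higher. The cause of these moves was not tested. With the replicate block, members called were 1 higher (Iigp1) and 1 lower (Isg15), against 2 and 1 without it, and 6.28% of genes were called in tumour against control. The block also ended the calls of Zbp1, Irf8, Sting1, Tor3a and Sp140. The median log2 fold change of members in tumour_swim against tumour was -0.16 to 0.05 without single libraries. Of the 31 uncalled members in tumour against control, 26 were called under no alternative. At 13.3 to 19.7 M reads, depth limits the members under 1 FPKM.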
